A study of Mus musculus with 18 samples.

Results

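A set of 10 genes of the brush border and the surface colonocyte was followed across 18 RNA sequencing libraries of mouse colorectal tissue. The genes were chosen by name for their roles, with earlier results of these data known: Cdhr2, Cdhr5, Ceacam20, Prap1, Vil1, Myo1a, Ush1c, Espn, Aqp8 and Guca2a. All 10 were present among the 10897 genes of the table. The tissue came from male C57BL/6J mice aged 10 weeks, in 3 groups of 6 libraries. The labels describe these groups in conflicting ways. By the sample characteristics, Control mice were wild-type, kept free of specific pathogens (SPF), and bore colorectal cancer induced with azoxymethane (AOM, a colon carcinogen). The GF-AOM mice were germ-free and received AOM, and the GF-AOMS mice were germ-free and received AOM plus cigarette smoke. By the treatment protocol, Control was a normal group, GF-AOM the AOM model and GF-AOMS that model with smoke, all from an SPF facility according to the growth protocol. Smoke separates GF-AOMS from GF-AOM under both, whereas what separates either of them from Control differs between the descriptions. Nothing in the labels says that each library is a separate mouse, so a p-value here reflects sample-to-sample spread that may be technical.

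The brush border is the array of microvilli on the apical face of absorptive intestinal cells. Each microvillus holds a bundle of actin filaments, cross-linked by proteins such as villin and espin and tied to the membrane by myosin motors. Neighbouring microvilli are joined at their tips by a pair of cadherins, which bind a scaffold in the cytoplasm and pack the microvilli into a regular array as the cell matures on its way to the surface of the epithelium.

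By these roles the genes fall into 4 sets. Cdhr2 and Cdhr5 encode the cadherins of the tip links, and Ush1c encodes harmonin, the scaffold that binds their tails. Vil1 (villin) and Espn (espin) bundle actin, and Myo1a is a membrane-linking myosin of the microvillus. Ceacam20 is a cell adhesion protein of the microvillar membrane and Prap1 a secreted proline-rich acidic protein of the intestinal epithelium. Aqp8, a water channel, and Guca2a, the precursor of the peptide guanylin, are made by mature colonocytes.

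In the table's coordinates, which match build GRCm38, 5 of the 10 genes lie on chromosome 7, where 7.38% of the genes in the table lie. These are Cdhr5 (ENSMUSG00000025497, chr7:141269083-141276786, minus strand), Prap1 (ENSMUSG00000025467, chr7:140093395-140097200, plus strand), Ceacam20 (ENSMUSG00000070777, chr7:19965412-19991104, plus strand), Ush1c (ENSMUSG00000030838, chr7:46195350-46238492, minus strand) and Aqp8 (ENSMUSG00000030762, chr7:123462291-123468004, plus strand). Prap1 ends 1.17 Mb from the near edge of Cdhr5. Cdhr2 (ENSMUSG00000034918) is at chr13:54701461-54736662 on the plus strand, Vil1 (ENSMUSG00000026175) at chr1:74409376-74435559 on the plus strand and Myo1a (ENSMUSG00000025401) at chr10:127705170-127720940 on the plus strand. Espn (ENSMUSG00000028943) is at chr4:152120331-152152371 on the minus strand and Guca2a (ENSMUSG00000023247) at chr4:119637704-119639471 on the plus strand.

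The 250 bases before the RefSeq start are shown for the 3 genes that passed the test in 1 comparison described below, Cdhr2, Cdhr5 and Prap1. They were read from the RefSeq promoter table, in which all 10 genes were matched (GRCm38.p6), and are written 5′ to 3′ on the strand of the gene. Capitals mark matches to 2 short motifs, CAAAGT (or ACTTTG on the other strand), a core of sites of the enterocyte regulator HNF4, and TTTATG (or CATAAA), the core of sites of the caudal-type regulators CDX1 and CDX2.
Cdhr2, chr13:54701213-54701462, plus strand: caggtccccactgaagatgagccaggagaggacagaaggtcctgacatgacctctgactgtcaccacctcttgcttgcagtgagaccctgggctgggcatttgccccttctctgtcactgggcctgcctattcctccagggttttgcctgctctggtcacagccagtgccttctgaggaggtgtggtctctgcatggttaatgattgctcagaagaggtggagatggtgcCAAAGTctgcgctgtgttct
Cdhr5, chr7:141276787-141277036, minus strand: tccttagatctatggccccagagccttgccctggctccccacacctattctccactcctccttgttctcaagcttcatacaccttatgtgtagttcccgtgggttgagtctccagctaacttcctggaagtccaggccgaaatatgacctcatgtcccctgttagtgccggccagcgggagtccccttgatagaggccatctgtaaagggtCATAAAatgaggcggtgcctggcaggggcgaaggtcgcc
Prap1, chr7:140093146-140093395, plus strand: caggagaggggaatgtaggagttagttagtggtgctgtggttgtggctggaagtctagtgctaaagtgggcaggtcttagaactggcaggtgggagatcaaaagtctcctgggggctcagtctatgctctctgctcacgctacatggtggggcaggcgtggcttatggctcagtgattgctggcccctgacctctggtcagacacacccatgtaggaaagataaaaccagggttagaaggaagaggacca
The CAAAGT match of Cdhr2 lay 20 bases before the start and the CATAAA match of Cdhr5 lay 39 bases before it. Prap1 held neither motif in this window. Over the 10 genes, the HNF4 core was found in 2, Cdhr2 and Ceacam20, against 12.6% of 32851 promoters. The CDX core was found in 1, Cdhr5, against 10.8% of promoters. The letters TATAAA (or TTTATA) were in 0 of the 10 windows and in 12.4% of promoters. These are matches of letters and not measured binding sites.

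The total per library was between 48.95 and 79.23 M counts, where M stands for mega. Levels are given as CPM, counts per M counts after TMM scaling (edgeR's trimmed mean of M-values), unless FPKM is named. Hoxa13 and Hoxb13, homeobox genes of the most distal gut, split the Control group. Hoxa13 was at 42 and 38.7 CPM in Control libraries 1 and 2, at 2.63, 0.82, 0 and 3.05 CPM in Control libraries 3 to 6, and at 24.7 to 53.5 CPM in all 12 other libraries. Hoxb13 was at 2.43 to 2.65 CPM in the same 4 Control libraries and at 19.8 to 330 CPM elsewhere. The share of counts in 80 ribosomal protein genes ran from 5.32% to 15.68% in Control, from 7.94% to 19.58% in GF-AOM and from 7.38% to 26.63% in GF-AOMS. The geometric mean of 15 pan-epithelial genes ran from 399.3 to 532.2 CPM in Control, from 341.3 to 420.8 in GF-AOM and from 299.8 to 461 in GF-AOMS. In bulk tissue, fewer cells of a type and less RNA per cell cannot be told apart. The part of colon position, ribosomal share and epithelial content in the differences below was not tested as a cause. Beside the results stand values with Hoxa13 or the ribosomal share in the model, with scaling to the epithelial genes or without the 4 Control libraries, where these moved the result.

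**Figure D1:**
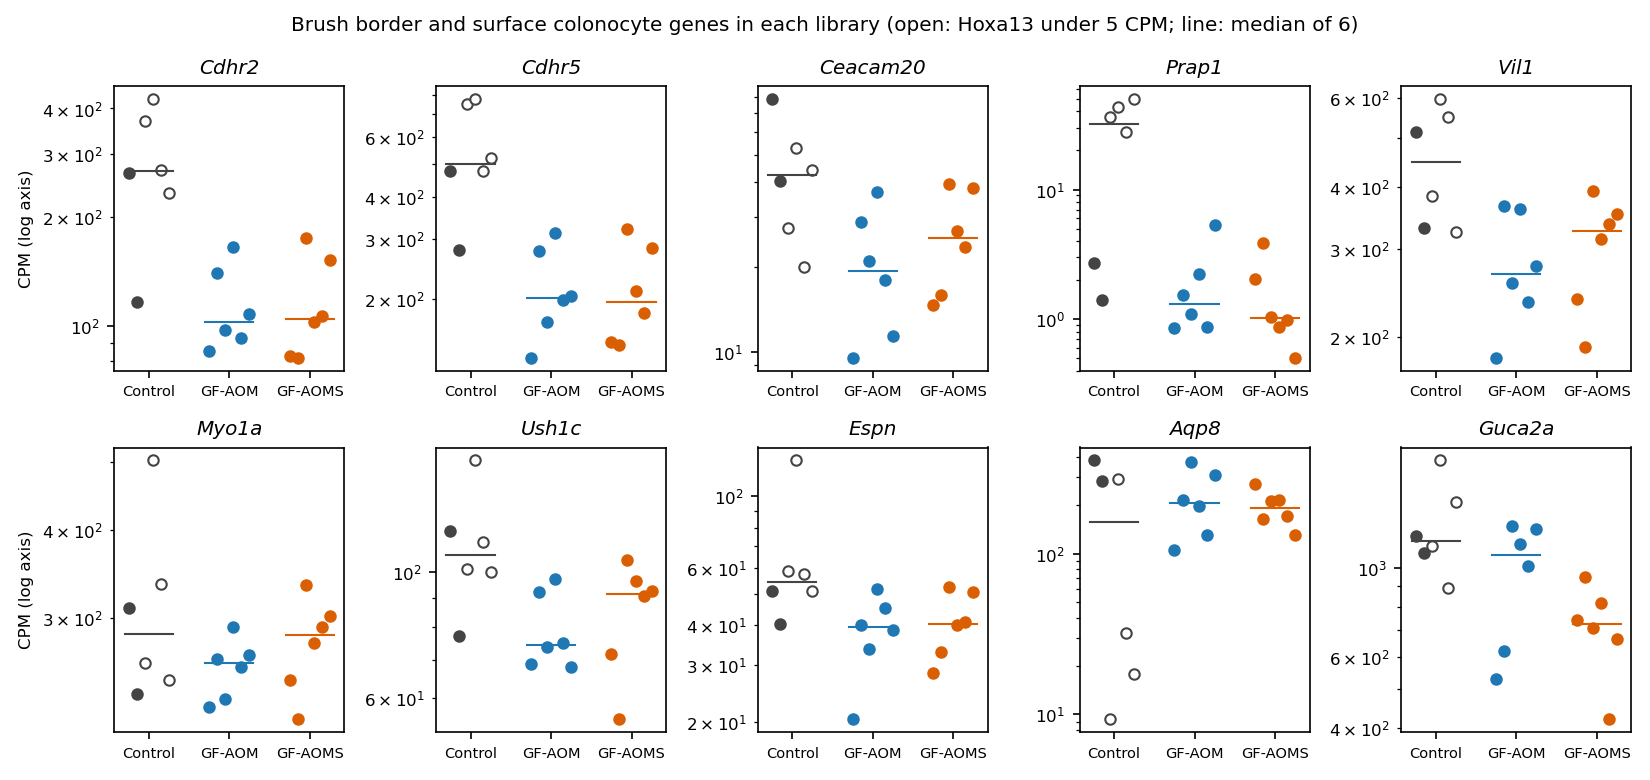
CPM of the 10 genes in each library on log axes, with a line at the median of 6 libraries in Control (grey), GF-AOM (blue) and GF-AOMS (orange). Open circles are the 4 Control libraries with Hoxa13 at 0 to 3.05 CPM. For Prap1 these 4 stand at 27.8 to 49.9 CPM, apart from all other libraries, and for Aqp8 3 of them stand below all other libraries.

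The tip-link cadherins were lower in both GF groups than in Control. Cdhr2 was at 117 to 425 CPM in Control (median 268), at 85.7 to 166 CPM in GF-AOM (median 103) and at 81.8 to 175 CPM in GF-AOMS (median 105). Control library 2, at 117 CPM, lay inside the range of the GF groups, and the other 5 Control libraries lay above every GF library. Cdhr5 was at 279 to 777 CPM in Control (median 499), at 134 to 312 CPM in GF-AOM (median 201) and at 146 to 322 CPM in GF-AOMS (median 197). Again only Control library 2, at 279 CPM, overlapped the GF groups. Of the Control libraries it had the highest ribosomal share (15.68%), the lowest epithelial mean (399.3 CPM) and the lowest TMM factor (0.893). The part of these in the overlap was not tested.

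In GF-AOMS against Control, Cdhr2 fell by 1.26 on the log2 scale (SE 0.27) and was 2.39-fold lower (edgeR quasi-likelihood, Benjamini-Hochberg adjusted p = 0.042). Cdhr5 fell by 1.34 (SE 0.27) and was 2.54-fold lower (edgeR adjusted p = 0.0304). Each was under the Control mean in 6 of 6 GF-AOMS libraries. Together with Prap1, these made 3 of the 10 genes past adjusted p of 0.05, all lower. Over all genes in this comparison 0.734% were called, and 0.624% were called lower. Without Control replicates 3, 4, 5 or 6, or GF-AOMS replicates 1, 2, 4, 5 or 6, left out in turn, none of the 3 passed. For Cdhr5 the edgeR adjusted p was then 0.0561 to 0.0913 and the difference -1.43 to -1.22. Cdhr2 also missed the threshold without GF-AOM replicate 1, 2, 3, 5 or 6 (edgeR adjusted p 0.05 to 0.0575), libraries that enter this comparison through the shared estimate of spread.

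In GF-AOM against Control, which shares the 6 Control libraries, the fitted difference was -1.28 (SE 0.27) for Cdhr2 and -1.34 (SE 0.27) for Cdhr5. Both had an edgeR adjusted p of 0.0792, so neither passed. By edgeR, 0 of the 10 genes were called here against 0.00918% of all genes, and 7 were lower at an unadjusted p under 0.05 against 9.74% of all genes. DESeq2 called 3 of the 10, again Cdhr2, Cdhr5 and Prap1, with adjusted p of 0.00126, 0.000404 and 3.6e-05, where it called 2.01% of genes lower. Limma on log2(FPKM + 1) called 0. Without Control replicate 2, edgeR called the same 3 genes (adjusted p = 0.00716 for each). Over all genes that fit called 356, of which 277 were lower, against 1 in the fit of all libraries. Without Control replicate 1, edgeR called Cdhr5 and Prap1 (adjusted p 0.0423 and 0.0353). Over all genes it then called 45, of which 42 were lower. The rise in calls was thus not confined to these 3 genes.

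The differences of the cadherins were smaller when other measures were taken into account, and kept their sign. With log2 CPM of Hoxa13 in the model, the GF-AOMS difference was -0.98 (SE 0.34) for Cdhr2 and -1.14 (SE 0.35) for Cdhr5. With only Control replicates 1 and 2 as controls it was -0.70 (SE 0.34) and -0.81 (SE 0.34). With the ribosomal share in the model it was -0.88 (SE 0.22) and -0.999 (SE 0.21). None of these passed by edgeR, with adjusted p of 0.0665 to 0.999, and the same 3 fits called 0, 0 and 8 of all genes. Scaled to the 15 epithelial genes, the GF-AOMS difference was -1.07 and -1.17 and both passed (edgeR adjusted p = 0.0496 for each), where 25 of all genes were called. On that footing Cdhr2 stood at 60.7% ± 20 of the epithelial mean in Control, 30.6% ± 6.09 in GF-AOM and 28.9% ± 6.26 in GF-AOMS (SD, n = 6). Cdhr5 stood at 119% ± 36.3, 57.2% ± 13.5 and 53.2% ± 11.9.

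The cadherins followed each other closely from library to library. Over the 18 libraries their log2 CPM had a Pearson r of 0.982, and 0.957 after group means were removed. Each was the gene most like the other among 9452 genes compared. The libraries share depth, tissue and groups, so this is a description only. The ratio of Cdhr5 to Cdhr2 in FPKM (fragments per kilobase of transcript, scaled by depth) was 3.03 ± 0.39 in Control, 2.81 ± 0.29 in GF-AOM and 2.77 ± 0.18 in GF-AOMS (SD, n = 6), with libraries from 2.36 to 3.61. The SD of their log2 ratio, 0.149 over 18 libraries, was the smallest of the 45 pairs among the 10 genes.

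Harmonin, which binds both cadherins in the cytoplasm, differed less. Ush1c was at 77.1 to 157 CPM in Control (median 107), at 67.8 to 96.9 CPM in GF-AOM (median 74.2) and at 54.9 to 105 CPM in GF-AOMS (median 91.5). The ranges overlapped in both comparisons. The difference from Control was -0.49 (SE 0.17, edgeR adjusted p = 0.209) in GF-AOM and -0.38 (SE 0.17, edgeR adjusted p = 0.286) in GF-AOMS, and neither passed. Without Control replicates 3 to 6 the differences were -0.30 (SE 0.23) and -0.19 (SE 0.23), and with the ribosomal share in the model -0.19 (SE 0.11) and -0.14 (SE 0.11). Set against the epithelial genes, Ush1c was at 24.2% ± 3.29, 21.1% ± 1.69 and 21.1% ± 1.77 in Control, GF-AOM and GF-AOMS.

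**Figure D2:**
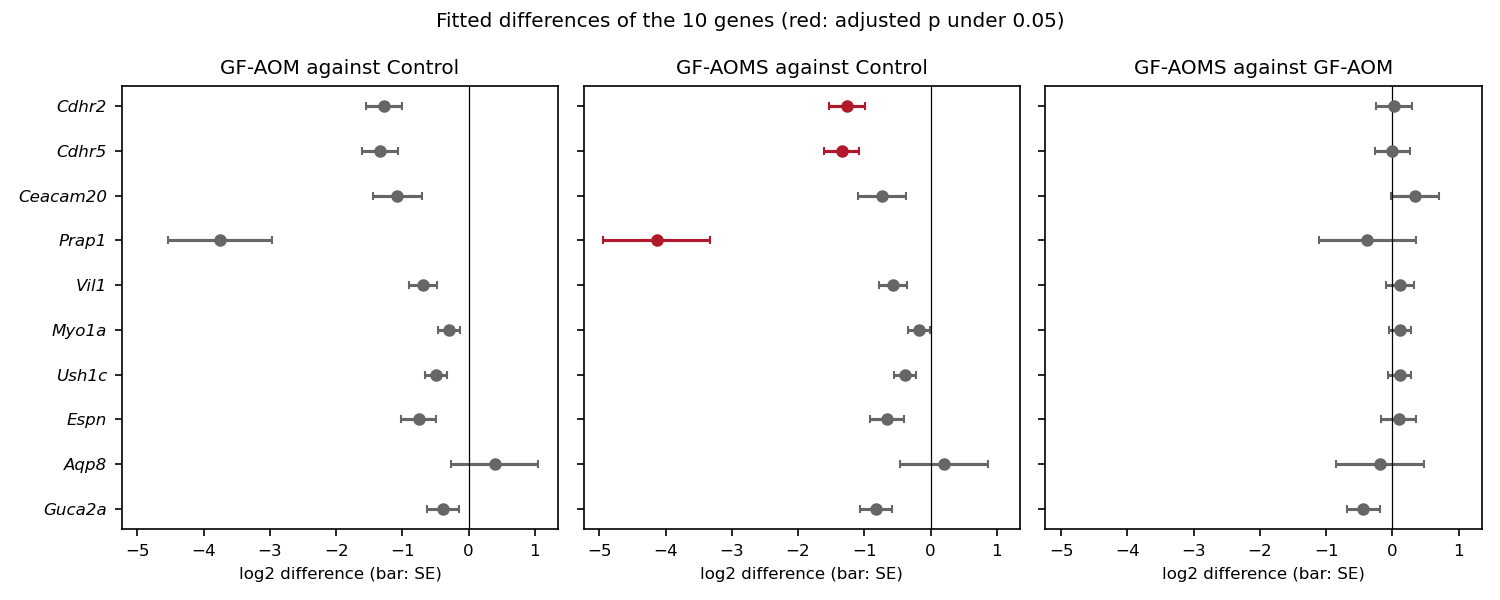
Fitted log2 difference of each gene in 3 comparisons, with bars of 1 SE and red for adjusted p under 0.05. Cdhr2, Cdhr5 and Prap1 are red in GF-AOMS against Control, and GF-AOMS against GF-AOM has no red point.

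The actin bundlers and the myosin of the microvillus were nearer to Control, and none passed the test. Vil1 was at 325 to 598 CPM in Control (median 448), at 182 to 366 CPM in GF-AOM (median 268) and at 191 to 391 CPM in GF-AOMS (median 326). Control libraries 2, 3 and 6 lay among the GF libraries, and Control libraries 1, 4 and 5 lay above all of them. Its difference from Control was -0.69 (SE 0.21, edgeR adjusted p = 0.165) in GF-AOM and -0.56 (SE 0.21, edgeR adjusted p = 0.222) in GF-AOMS. With the ribosomal share in the model the differences were -0.34 (SE 0.15) and -0.28 (SE 0.15), scaled to the epithelial genes -0.40 and -0.38, and without Control replicates 3 to 6 -0.59 (SE 0.28) and -0.47 (SE 0.29).

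Espn was at 40.2 to 129 CPM in Control (median 54.3), at 20.4 to 51.8 CPM in GF-AOM (median 39.3) and at 28.4 to 52.3 CPM in GF-AOMS (median 40.4). Control library 4, at 129 CPM, stood far above the other 5, which ended at 58.7 CPM. The difference from Control was -0.75 (SE 0.26, edgeR adjusted p = 0.209) in GF-AOM and -0.66 (SE 0.26, edgeR adjusted p = 0.239) in GF-AOMS. Without Control replicates 3 to 6, library 4 among them, it was -0.25 (SE 0.28) and -0.15 (SE 0.29), and with Hoxa13 in the model -0.42 (SE 0.33) and -0.33 (SE 0.33).

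Myo1a had the smallest differences from Control of the structural genes. It was at 234 to 503 CPM in Control (median 285), at 224 to 291 CPM in GF-AOM (median 259) and at 215 to 334 CPM in GF-AOMS (median 284). Control library 4 was again the highest. The difference from Control was -0.30 in GF-AOM (95% interval -0.65 to 0.05) and -0.18 in GF-AOMS (95% interval -0.53 to 0.17), with edgeR adjusted p of 0.357 and 0.582. Against the epithelial genes it was at 68.2% ± 13.9 in Control, 68.4% ± 5.6 in GF-AOM and 69.5% ± 2.48 in GF-AOMS, and scaled to them its difference turned to 0.005 and 0.03 on the log2 scale. With Hoxa13 in the model, without Control replicates 3 to 6 or without Control replicate 4 alone, its GF-AOMS difference was also above 0, at 0.009, 0.03 and 0.003.

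Ceacam20 was at 20 to 78.8 CPM in Control (median 42.3), at 9.5 to 36.8 CPM in GF-AOM (median 19.4) and at 14.6 to 39.4 CPM in GF-AOMS (median 25.2). Control libraries 3 and 5, at 27.4 and 20 CPM, lay among the GF libraries, and the other 4 Control libraries lay above every GF library. Its difference from Control was -1.08 (SE 0.36, edgeR adjusted p = 0.204) in GF-AOM and -0.73 (SE 0.36, edgeR adjusted p = 0.323) in GF-AOMS. Unlike the cadherins, it was further below Control when Hoxa13 was in the model, at -1.57 (SE 0.42) and -1.23 (SE 0.42), and when Control replicates 3 to 6 were left out, at -1.51 (SE 0.46) and -1.17 (SE 0.46). None of these passed by edgeR, with adjusted p of 0.997 to 0.999.

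Prap1 had the largest fitted difference from Control of the 10 genes, and the Control group itself was split. In Control libraries 1 to 6 it was at 2.73, 1.4, 36.2, 42.9, 27.8 and 49.9 CPM. The GF-AOM libraries ran from 0.859 to 5.35 CPM (median 1.31) and the GF-AOMS libraries from 0.503 to 3.86 CPM (median 1.02). The 4 Control libraries with low Hoxa13 thus stood apart from the other 14, and Control libraries 1 and 2 lay inside the range of the GF groups. These levels rest on 29 to 254 counts in the GF libraries, on 150 and 80 counts in Control libraries 1 and 2, and on 1605 to 4002 counts in the other 4.

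Fitted over all libraries, Prap1 fell by 4.13 on the log2 scale (SE 0.81) in GF-AOMS against Control, 17.6-fold (edgeR adjusted p = 0.0304), and was below the Control mean in 6 of 6 libraries. In GF-AOM against Control the difference was -3.76 (SE 0.79, edgeR adjusted p = 0.0792) and did not pass. With only Control replicates 1 and 2 as controls the differences were -0.42 (SE 0.76) and -0.06 (SE 0.77). With Hoxa13 in the model they were -1.94 (SE 0.99) and -1.45 (SE 1.04), and none of these 4 values passed, with edgeR adjusted p of 0.997 to 0.999. In addition to the 9 libraries named for the cadherins, the call of Prap1 was lost without GF-AOMS replicate 3 (edgeR adjusted p = 0.0507). Prap1 overlaps Fuom on the opposite strand, and the strand setting of the counting is not given in the sources used here. Fuom was at 44.69, 53.73 and 50.23 CPM in Control, GF-AOM and GF-AOMS and was not called in either comparison with Control. Vil1 overlaps Usp37, and Ush1c overlaps Gm9860, in the same way.

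**Figure D3:**
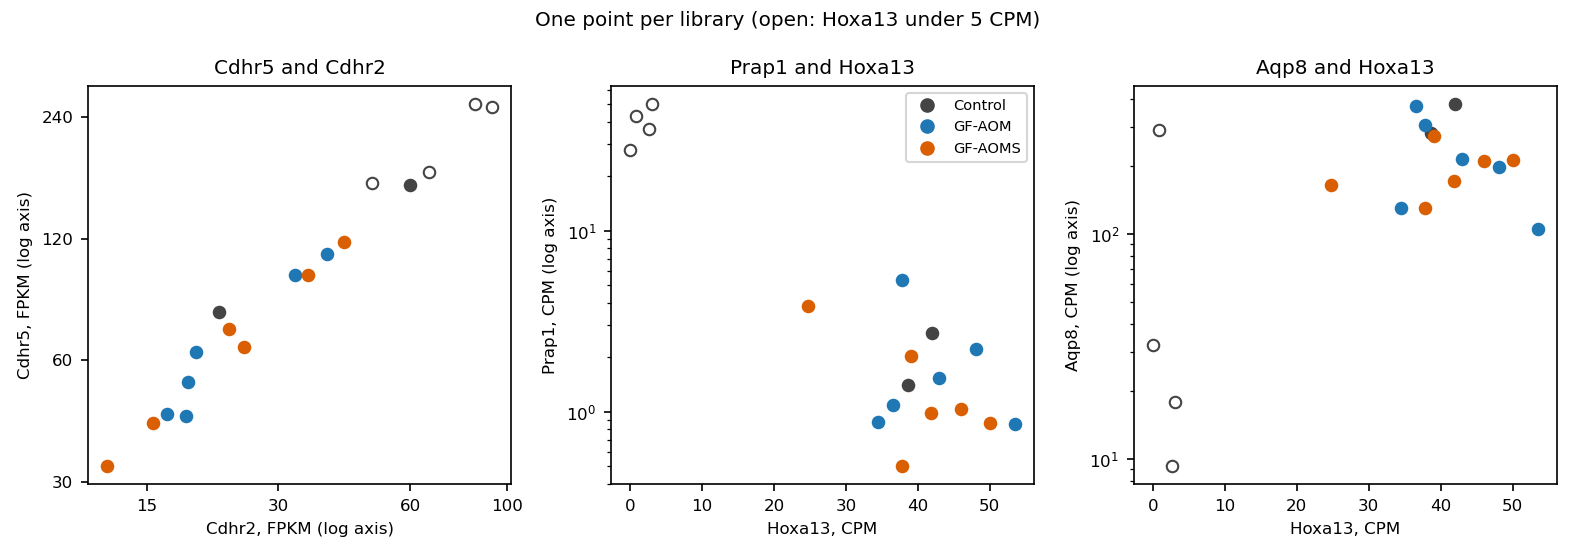
One point per library, with open circles for the 4 Control libraries with Hoxa13 at 0 to 3.05 CPM: Cdhr5 against Cdhr2 in FPKM on log axes (left), and Prap1 (centre) and Aqp8 (right) in CPM on a log axis against Hoxa13 in CPM. Cdhr2 and Cdhr5 lie along a line over all groups, and Prap1 is high in the 4 open points alone.

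Aqp8 was split inside Control in another way. Control libraries 1 to 6 held 379, 282, 9.3, 292, 32 and 17.9 CPM. Libraries 3, 5 and 6 lay below all 15 others, while library 4, also low in Hoxa13, was as high as libraries 1 and 2. The GF-AOM libraries were at 105 to 373 CPM (median 206) and the GF-AOMS libraries at 131 to 272 CPM (median 191). Aqp8 was the gene with the largest spread relative to its mean in Control, with a coefficient of variation of 98.9%, against 46.3% in GF-AOM and 25.3% in GF-AOMS. Its difference from Control was 0.39 (95% interval -1 to 1.78) in GF-AOM and 0.20 (95% interval -1.19 to 1.59) in GF-AOMS, with edgeR adjusted p of 0.748 and 0.894. The sign rested on those Control libraries: with only Control replicates 1 and 2 as controls the differences were -0.58 (SE 0.38) and -0.77 (SE 0.38).

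Guca2a was the most abundant of the 10 genes. It was at 890 to 1846 CPM in Control (median 1166), at 529 to 1272 CPM in GF-AOM (median 1077) and at 420 to 948 CPM in GF-AOMS (median 726). In GF-AOMS 5 of 6 libraries lay below every Control library, and library 2, at 948 CPM, lay above the lowest Control. Its difference from Control was -0.82 in GF-AOMS (SE 0.24, edgeR adjusted p = 0.124, unadjusted p = 0.0035) and -0.39 in GF-AOM (SE 0.24, edgeR adjusted p = 0.4). DESeq2 called it in GF-AOMS against Control (adjusted p = 0.0361), where that tool called 2.64% of genes lower. With Hoxa13 in the model the GF-AOMS difference was -0.81 (SE 0.32), and with only Control replicates 1 and 2 it was -0.67 (SE 0.33).

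**Figure D4:**
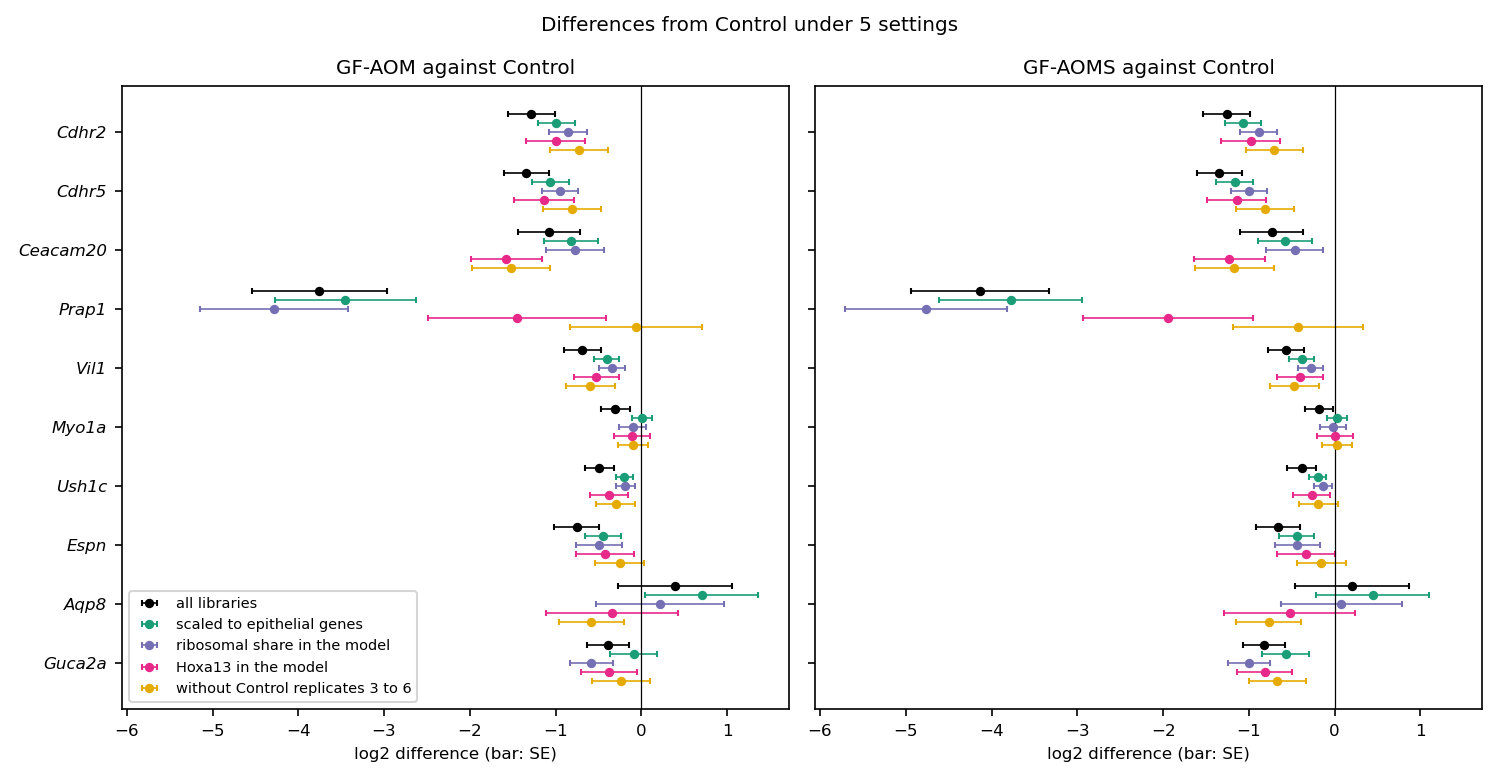
Log2 difference from Control of each gene, with bars of 1 SE, under 5 settings: all libraries, scaling to 15 epithelial genes, ribosomal share or Hoxa13 in the model, and without Control replicates 3 to 6. Cdhr2 and Cdhr5 stay below 0 throughout, Prap1 moves to -0.06 and -0.42 without those 4 libraries, and Aqp8 changes sign.

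Over the 10 genes, 9 had a negative difference from Control in each comparison, where 50.5% of all genes did in GF-AOM and 49% in GF-AOMS. The median difference of the 10 was -0.72 in GF-AOM and -0.70 in GF-AOMS, beside medians of -0.004 and 0.006 over all genes. The pan-epithelial genes were also mostly below Control, with 14 of 15 negative in GF-AOM (median -0.35) and 12 of 15 in GF-AOMS (median -0.23). Scaled to those genes, the median of the 10 was -0.42 and -0.51 where that of all genes was 0.27 and 0.20, and 8 of the 10 were negative in each. The median of the 10 without Control replicates 3 to 6 was -0.44 and -0.57, and with the ribosomal share in the model -0.54 and -0.45. In GF-AOMS 7 of the 10 were lower at an unadjusted p under 0.05, against 9.25% of all genes. None of the 10 had groups that did not overlap, against 0.459% of all genes lower without overlap in GF-AOM and 0.541% in GF-AOMS.

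Smoke was the labelled difference between GF-AOMS and GF-AOM, and there no gene of the 10 passed. By edgeR 0 of 10 were called, as were 0% of all genes, and 0 of 10 had an unadjusted p under 0.05, against 1.09% of all genes. DESeq2 and limma also called 0 of the 10. A negative difference was found in 4 of the 10, against 46.4% of all genes. The difference was 0.02 for Cdhr2 (95% interval -0.54 to 0.58), -0.004 for Cdhr5 (-0.56 to 0.55) and -0.38 for Prap1 (-1.91 to 1.16). It was 0.12 for Vil1 (95% interval -0.33 to 0.57), 0.12 for Myo1a (-0.23 to 0.47), 0.11 for Ush1c (-0.25 to 0.46) and 0.10 for Espn (-0.45 to 0.64). The narrower of these intervals leave out a change of 1 on the log2 scale, and those of Prap1, Ceacam20 (0.34, -0.42 to 1.10) and Aqp8 (-0.19, -1.58 to 1.20) do not. Guca2a had the smallest unadjusted p of the 10, 0.0897 by edgeR, with a difference of -0.44 (-0.95 to 0.07) and 6 of 6 GF-AOMS libraries below the GF-AOM mean.

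Levels between genes were compared in FPKM, which is per length of transcript. Guca2a was highest in each group, at 1920 ± 496 in Control, 1360 ± 384 in GF-AOM and 1030 ± 208 in GF-AOMS (SD, n = 6), and above the next gene in 6 of 6 libraries of each group. In Control the order went on with Cdhr5 at 182 ± 66.7, Vil1 at 116 ± 36.5, Aqp8 at 93.9 ± 94, Myo1a at 76.9 ± 26.3 and Cdhr2 at 62.2 ± 25.3. Cdhr5 was above Vil1 in 6 of 6 Control libraries, while Vil1 and Aqp8, and Aqp8 and Myo1a, stood in this order in only 3 of 6. Prap1 at 39.6 ± 29.6, Ush1c at 25.5 ± 6.9, Ceacam20 at 13.6 ± 6.66 and Espn at 7.07 ± 3.54 closed the order, and Ush1c was above Ceacam20 in 6 of 6 libraries.

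In the GF groups Aqp8 was second, at 115 ± 41.2 in GF-AOM and 107 ± 29.7 in GF-AOMS, and Prap1 was last, at 2.61 ± 1.95 and 1.93 ± 1.08. Cdhr5, at 68.5 ± 28.3 in GF-AOM and 71.1 ± 32.4 in GF-AOMS, stood beside Vil1 at 67.9 ± 24 and 77.4 ± 29. Cdhr5 was above Vil1 in 2 of 6 GF-AOM libraries, and Vil1 above Cdhr5 in 4 of 6 GF-AOMS libraries, so the pair could not be ordered there. Myo1a was above Cdhr2 and Cdhr2 above Ush1c in 6 of 6 libraries of both GF groups. Those neighbours were 58.6, 24.2 and 17.2 FPKM in GF-AOM.

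Outside the 10 genes themselves, the genes whose log2 CPM followed each of them most closely over the 18 libraries were named by Pearson r, as a description of libraries that share groups and depth. For Cdhr2, after Cdhr5, these were Slc44a4 (0.971), Aplp1 (0.967) and Chp1 (0.965), and the same 3 came next after Cdhr2 for Cdhr5. Vil1 was followed by Pls1 (0.964), which encodes plastin 1, another actin bundler of the microvillus, and by Myh14 (0.951) and Slc9a3r1 (0.949). Ush1c was followed by Ppp2ca (0.965), Lmo7 (0.96) and Hadha (0.955). Espn was followed by Ethe1 (0.929), Myo1a by Me2 (0.911), Guca2a by Ano10 (0.903) and Ceacam20 by Gnas (0.896).

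For Prap1 the closest were H2-Q2 (0.964), Aldh7a1 (0.947) and Ces1f (0.947). H2-Q2 and Ces1f belong to families of similar genes whose reads the counting could have split. For Aqp8 they were Ly6m (0.89), Tradd (0.887) and Chp2 (0.872), but over the 12 GF libraries alone these fell to 0.623, 0.461 and 0.359. By its highest r, Aqp8 was the gene least like the other 9: its closest among them was Myo1a, with an r of 0.11. Its r was negative with Prap1 (-0.606), Cdhr5 (-0.472) and Cdhr2 (-0.45), or -0.461, -0.206 and -0.181 after group means were removed.

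Other genes of the brush border were read by their roles. The rest of the intermicrovillar adhesion complex was measured for 3 of 3 genes, Myo7b, a myosin that carries the complex to the tips, Anks4b, a scaffold, and Calml4, a light chain. By edgeR 0 of 3 were called in GF-AOMS against Control, with a median of -0.63. Myo7b was at -0.85 (SE 0.24, edgeR adjusted p = 0.115) and Anks4b at -0.63 (SE 0.18, edgeR adjusted p = 0.117). Calml4 had the opposite sign, at 0.17 (SE 0.20, edgeR adjusted p = 0.679) in GF-AOMS and 0.21 (SE 0.20, edgeR adjusted p = 0.553) in GF-AOM. In GF-AOM against Control 0 of 3 were called and the median was -0.47. The list median without Control replicates 3 to 6 was 0.06 in GF-AOM and -0.06 in GF-AOMS.

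Of the microvillus core and its membrane linkers 16 of 17 were measured. In GF-AOMS against Control 13 of 16 had a negative difference, with a median of -0.25, and 0 were called. Myh14, a myosin of the terminal web, was at -0.68 (SE 0.24, edgeR adjusted p = 0.19) and Eps8, an actin-capping protein of the microvillus tip, at -0.50 (SE 0.19, edgeR adjusted p = 0.227). In GF-AOM 14 of 16 were negative, with a median of -0.40, and 0 were called. With the ribosomal share in the model the medians were -0.14 in GF-AOM and -0.08 in GF-AOMS, and without Control replicates 3 to 6 they were -0.34 and -0.17.

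Apical scaffolds and the terminal web were measured for 11 of 16 genes. Tmigd1, an adhesion protein of the brush border, was the 1 gene called in GF-AOMS against Control, at 103 CPM in Control and 29.57 CPM in GF-AOMS, a fall of 1.80 (SE 0.40, edgeR adjusted p = 0.0495). It kept the call in 3 of 18 fits with 1 library left out, those without Control replicate 1, Control replicate 2 or GF-AOM replicate 1. Its difference was -1.07 with Hoxa13 in the model and -0.56 without Control replicates 3 to 6. In these fits, with the ribosomal share in the model and with scaling to the epithelial genes, 0 of the 11 genes were called. Myo5b, a motor of apical vesicle traffic, was at -0.65 (SE 0.20, edgeR adjusted p = 0.127) and Pdzd3, a scaffold, at -0.48 (SE 0.20, edgeR adjusted p = 0.268). Of the 11 genes 9 were negative, with a median of -0.22, and in GF-AOM 8 were, with a median of -0.42 and 0 called. The medians without Control replicates 3 to 6 were -0.12 in GF-AOM and -0.17 in GF-AOMS, and with the ribosomal share in the model -0.08 and -0.11.

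Of the brush border hydrolases and ectoenzymes 7 of 18 were measured, and all 7 had a negative difference from Control in both comparisons, with medians of -0.56 in GF-AOM and -0.77 in GF-AOMS. By edgeR 0 were called in either. Without Control replicates 3 to 6, 4 of 7 were negative in each comparison and the medians were -0.03 and -0.009, and with Hoxa13 in the model the medians were -0.29 and -0.27. The meprin genes Mep1a and Mep1b, which encode metalloproteases of the brush border, were at -1.80 (SE 0.44, edgeR adjusted p = 0.0654) and -1.02 (SE 0.36, edgeR adjusted p = 0.194) in GF-AOMS.

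Surface colonocyte genes other than the 10 were measured for 25 of 28. In GF-AOMS against Control 18 were negative and 7 positive, with a median of -0.34, and 2 were called, both lower. At an unadjusted edgeR p under 0.05, 9 were lower and 1 was higher. Among genes that were not lower, Aqp4 had a mean of 225.9 CPM in Control (55.61 to 551.6) and 519.6 CPM in GF-AOMS (226.7 to 704.5). Car1, a carbonic anhydrase of the colon epithelium, fell by 3.91 (SE 0.70, edgeR adjusted p = 0.0304) from 6883 to 458.1 CPM. Selenbp1, a selenium-binding protein, fell by 1.495 (SE 0.31, edgeR adjusted p = 0.0393). Both calls ended when Control replicate 3, 4 or 6 or GF-AOMS replicate 1, 2, 4, 5 or 6 was left out, and that of Selenbp1 also without Control replicate 5 or GF-AOM replicate 2, 3 or 6. With Hoxa13 in the model the differences were -1.45 and -0.94, and without Control replicates 3 to 6 they were -0.63 and -0.50.

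In the same list, Lypd8, an antibacterial surface protein of the colon, was at -0.97 (SE 0.24, edgeR adjusted p = 0.071), with all GF-AOMS libraries below all Control libraries, and Emp1, a membrane protein, was at -1.37 (SE 0.35, edgeR adjusted p = 0.08). Lypd8 was also separated in GF-AOM, at 1143 to 2732 CPM against 3448 to 6252 CPM in Control. Lower without overlap were 3 of the 25 genes in GF-AOM and 1 in GF-AOMS, against 0.459% and 0.541% of all genes. In GF-AOM 18 of 25 were negative, with a median of -0.49 and 0 called. Leaving out Control replicates 3 to 6, the medians of the list were -0.25 in GF-AOM and -0.27 in GF-AOMS, and with the ribosomal share in the model -0.23 and -0.25.

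Regulators of enterocyte differentiation were measured for 14 of 15. In the edgeR fit of all libraries with TMM scaling, 0 were called in any comparison. With scaling to the epithelial genes, 1 was called higher in GF-AOMS against Control. In GF-AOMS against Control 11 were negative, with a median of -0.28. Cdx2, which specifies intestinal identity, was at -0.39 (SE 0.16, edgeR adjusted p = 0.249), and Smad4, a mediator of BMP and TGF-beta signals, at 0.48 (SE 0.14, edgeR adjusted p = 0.126). In GF-AOM 11 were negative, with a median of -0.37. When Control replicates 3 to 6 were left out, 7 of 14 were negative in GF-AOM (median -0.006) and 5 of 14 in GF-AOMS (median 0.06). With the ribosomal share in the model the medians were -0.02 and -0.008. Between GF-AOMS and GF-AOM the medians of these 6 lists lay between -0.04 and 0.12 and 0 of their genes were called.

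**Figure D5:**
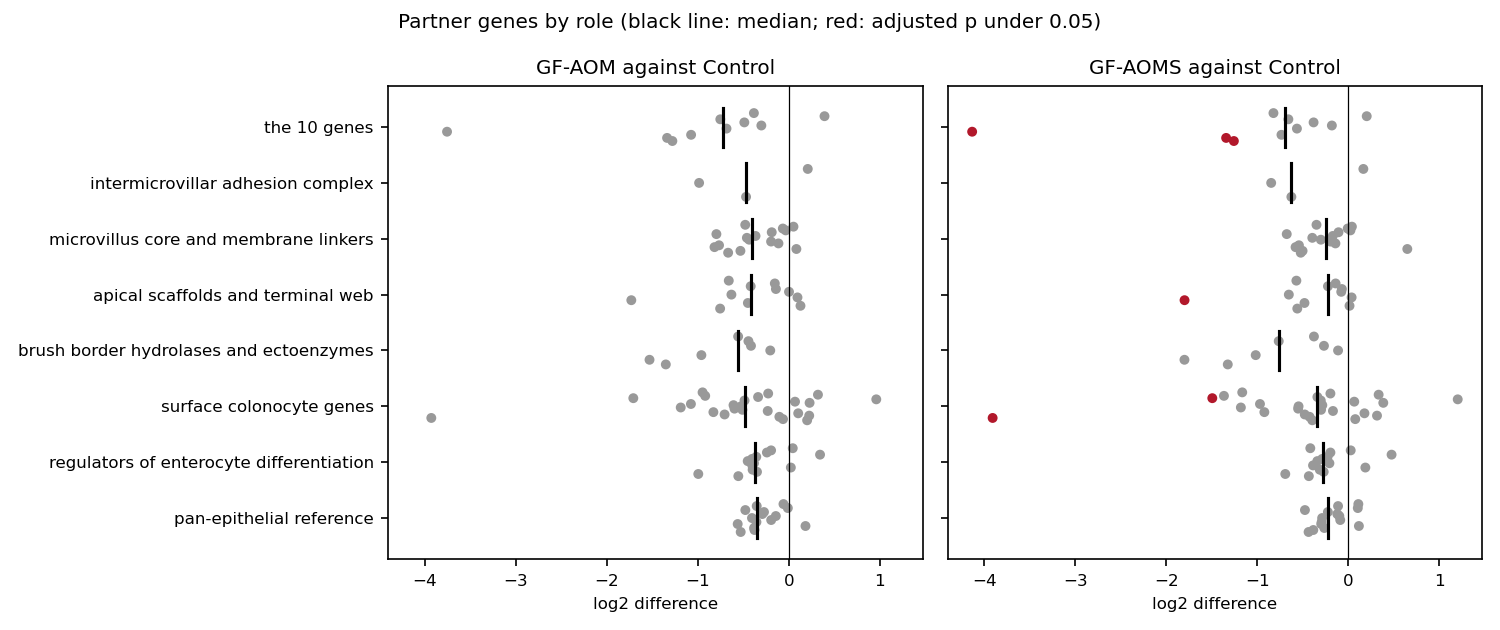
Log2 difference from Control of each measured gene of the 10, of 6 lists of partner genes and of the pan-epithelial genes, in GF-AOM (left) and GF-AOMS (right), with a black line at each list's median and red for adjusted p under 0.05. The 7 medians other than that of the 10 genes lie between -0.77 and -0.22, and 6 genes are red, all in GF-AOMS against Control.

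Markers of other cells and of colon position moved beside these genes, and their part in the results was not tested. By edgeR 0 of the 15 pan-epithelial genes were called in either comparison with Control, and their summed level ran from 10001 to 14757 CPM in Control, from 7532 to 10088 in GF-AOM and from 7983 to 11219 in GF-AOMS. Smooth muscle genes (11 of 11 measured) had median differences of 0.32 in GF-AOM and 0.36 in GF-AOMS, with 10 of 11 positive in each. Their summed levels were 1887 to 5323 (median 3688), 3905 to 6437 (median 4473) and 2358 to 13039 CPM (median 3766) in the same order. Goblet cell genes (11 of 11 measured) had medians of 0.32 and 0.20, with 8 positive and 3 negative in each. Their sums were 13370 to 31331 (median 21177), 14253 to 45629 (median 26427) and 15245 to 47273 CPM (median 19153), so the GF-AOMS median sum was below that of Control. Immune genes (11 of 14 measured) had medians of 0.41 in GF-AOM, with 11 of 11 above 0, and 0.23 in GF-AOMS, with 8 of 11 above 0. Crypt progenitor genes (9 of 11) had medians of -0.32 in GF-AOM, with 8 of 9 negative, and 0.01 in GF-AOMS, with 4 of 9 negative. Fibroblast genes (8 of 9) had medians of -0.33 and -0.44 and small intestine enterocyte genes (5 of 14) of -0.42 and -0.46, with every gene negative in both lists. By edgeR 0 genes were called in any of these lists in either comparison.

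Of 6 measured enteroendocrine genes, 3 were negative and 3 positive in each comparison with Control, with medians of 0.014 in GF-AOM and -0.018 in GF-AOMS. Among them Chga and Chgb, the chromogranins, were called lower in GF-AOMS, by 1.98 and 1.88 on the log2 scale, where 0.624% of all genes were called lower. Of 3 measured genes of proximal position 1 was called, Cyp2c55, a cytochrome P450 gene, which fell by 3.73. The edgeR adjusted p was 0.0304 for each of these 3. All 3 calls ended when Control replicate 3, 4 or 6 or GF-AOMS replicate 1, 2, 4, 5 or 6 was left out, and that of Chgb also without Control replicate 5. Without Control replicates 3 to 6 the differences were -0.61, -0.61 and -1.02. The summed proximal genes ran from 197 to 3310 CPM in Control, from 126 to 497 in GF-AOM and from 74 to 240 in GF-AOMS. Of these 3 genes, 2 were negative and 1 was positive in each comparison with Control. Hoxb9, 1 of the 3, was at only 30.19 to 81.74 CPM in Control, so the sum does not describe each gene of the list. The 3 measured genes of distal position summed to 7 to 379 CPM in Control, 107 to 240 in GF-AOM and 73 to 338 in GF-AOMS, and 0 were called. Their median difference from Control was 1.231 in GF-AOM and 1.115 in GF-AOMS. That of the proximal genes was -0.79 and -0.992. Among the 3 distal genes 1, Hoxa11, was higher in GF-AOM without overlap, at 13.46 to 25.44 CPM against 3.955 to 11.46 CPM in Control. The share of all genes higher without overlap was not computed, so this count has no background beside it. Without Control replicates 3 to 6 the medians were 0.064 and -0.016 for the distal genes and 0.039 and -0.153 for the proximal genes.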

How the data were processed

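Total RNA from mouse colon was sequenced after ribosomal RNA depletion in strand-specific libraries, per the labels' protocols, which place all 18 libraries in 1 batch. The deposited table gives read counts per gene, whole numbers per the file headers, and, from the authors, FPKM values of these 10897 genes. The submitters' processing notes list featureCounts, DESeq2 and build GRCm39 without versions, and the aligner is not given in the sources used here. GENCODE M21, which annotates GRCm38, holds 10890 of the identifiers, and start and end differ from it by at most 100 bases for 93.14% of these, so the positions match GRCm38. FPKM reached 1 in 15 or more libraries for each gene, so genes confined to 1 group were not analysed here.

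A single edgeR 4.0.16 model (R 4.3.3) covered the 18 libraries (TMM factors, quasi-likelihood test, 3 groups, no covariate, 15 residual degrees of freedom). Tests were two-sided, with Benjamini-Hochberg adjustment over 10897 genes and calls at adjusted p under 0.05. CPM are counts per M counts (M is the prefix mega) after TMM, log2 CPM used a prior count of 2, and 95% intervals are the fitted difference and its SE times the t quantile. The total counts of 48.95 to 79.23 M limit only the lowest values, and within-group correlations of libraries were 0.843 to 0.981. On simulated counts for GF-AOMS against Control over 10897 genes, 70% of genes changed by 1 on the log2 scale and 95% of those changed by 2 were recovered, with 8 false calls. Apart from those changes, each gene was drawn independently around a mean common to all groups. The simulated Control libraries were thus not split as the real ones were, so these figures need not hold for the real libraries. Alternatives used DESeq2 1.42.0 and limma 3.58.1 on log2(FPKM + 1) and log2(FPKM + 0.1), other scalings, a filter, covariates and fewer libraries.

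The 10 genes and all lists were chosen with earlier results of these data known, and are not independent of them. All 10 genes are named. Of each partner list the genes called in any comparison and the 2 others with the smallest p in GF-AOMS against Control are named. For each of the 10, up to 3 genes outside the 10 with the highest r are named, passing over clone names. Promoters came from RefSeq (GRCm38.p6).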

Additional observations from a re-analysis of the deposited data

Results flagged for a closer look

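Within each group of 6 libraries, the gap between the highest or lowest library and its neighbour was divided by the range of the group, for 30 sets of values (10 genes in 3 groups). Chance alone would mark about 1 set in 20. In 2 sets 1 library stood apart. Prap1 in GF-AOM library 6 was at 5.35 CPM, and its gap to the next library was a share of 0.696 of the range. Espn in Control library 4 was at 129 CPM, with a share of 0.791.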

How the results depend on the processing

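Each result was recomputed under 31 alternatives, 18 of which left out 1 library. A difference within 1 SE of 0 in the fit of all libraries was given no direction, and a turn of its sign was not counted. In GF-AOMS against Control, 3 of the 10 genes and 80 of all genes were called. The count of the 10 was 0 with limma at both pseudocounts, with only the 2 groups compared, with Hoxa13 or the ribosomal share in the model and without Control replicates 3 to 6, and 0 to 3 with 1 library left out. With the replicate block it was 1, Cdhr5 (-1.34, edgeR adjusted p = 0.0393). The count over all genes was 375 with DESeq2, 17 and 16 with limma, 47 with upper quartile factors, 25 with epithelial scaling, 0 with only the 2 groups, 33 with the replicate block, 0 with Hoxa13 in the model, 8 with the ribosomal share, 0 without Control replicates 3 to 6, 277 without the 5 libraries with a TMM factor under 0.9, and 0 to 493 with 1 library left out.

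In GF-AOM against Control, 0 of the 10 and 1 of all genes were called. The 10 gave 3 calls with DESeq2, 3 without the 5 libraries, and 0 to 3 with 1 library left out. All genes gave 284 with DESeq2, 0 and 0 with limma, 0 with only the 2 groups, 2 with the replicate block, 0 with Hoxa13 or the ribosomal share in the model, 132 without the 5 libraries and 0 to 356 with 1 library left out. In GF-AOMS against GF-AOM the count over all genes was 0, and 3 with DESeq2, 3 with the ribosomal share, 1 without the 5 libraries and 0 to 0 with 1 library left out. The cause of these changes was not tested.

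Among differences beyond 1 SE, the sign turned for Myo1a (0.005 in GF-AOM and 0.028 in GF-AOMS with epithelial scaling; 0.009 with Hoxa13 in the model, 0.029 without Control replicates 3 to 6 and 0.003 without Control replicate 4, all in GF-AOMS, where its value with 1 library left out ran from -0.253 to 0.003), and in GF-AOM without Control replicates 3 to 6 for Cyp2c55 (0.039) and Anks4b (0.092). Aqp8, within 1 SE of 0, was negative in 2 of 31 alternatives in GF-AOM, with Hoxa13 in the model (-0.34) and without Control replicates 3 to 6 (-0.58), and in 5 of 31 in GF-AOMS, those 2 (-0.52 and -0.77) and without Control replicate 3, 5 or 6 (-0.05, -0.01 and -0.04). Epithelial scaling moved the median of all genes by 0.27 in GF-AOM and 0.20 in GF-AOMS against Control. The filter at an FPKM of 5 in 6 libraries left 7273 genes and gave no value for Prap1. Same-numbered libraries of different groups correlated from -0.62 to 0.52 (median -0.04), 7 of 18 pairs were over 0.1 and 4 of 18 libraries were most like their own number. These values show no sign of pairing by number. They cannot exclude it, because they also carry other differences between the libraries.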
